A study of Mus musculus with 6 samples.

Results

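Retinoic acid is a small signal made from vitamin A, and its level in a tissue depends on the enzymes that make it and those that break it down. The genes described here are 10 genes of that system: the synthesis enzymes *Aldh1a1*, *Aldh1a2* and *Aldh1a3*, the receptors *Rara*, *Rarb* and *Rarg*, the degrading enzymes *Cyp26a1* and *Cyp26b1*, and the binding proteins *Crabp1* and *Crabp2*. They were chosen by symbol for their function, and all 10 were found among the 55414 genes with counts. RNA sequencing was done on cells of the *Pdx1-Cre* lineage sorted from the trunk of mouse embryos at E10.5, in 3 WT and 3 KO libraries. The WT group is Pdx1-Cre+, Tdtomato+ and miR-302WT, and the KO group is Pdx1-Cre+, Tdtomato+ and miR-302KO. Every embryo thus carried the *Pdx1-Cre* transgene and the *Rosa26* LSL-tdTomato reporter, which marks cells in which Cre has been active and their descendants, whatever their type at the time of sorting. The *mir-302* deletion came from a cross of heterozygous parents and is present in the whole embryo, so a difference between the groups need not arise within the sorted cells. The labels do not say whether the libraries of a genotype came from separate embryos or litters, and the p-values measure the spread between these libraries.

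In the cell that makes it, retinol is oxidised to retinaldehyde and then, by the ALDH1A enzymes, to retinoic acid, which moves to neighbouring cells. There it enters the nucleus with the help of CRABP2 and binds RARA, RARB or RARG, which sit on DNA as pairs with a retinoid X receptor. CYP26 enzymes inactivate retinoic acid, and CRABP1 is known for passing it to them. In the early foregut, retinoic acid from the mesoderm is known to be needed for the dorsal pancreas to form, and *Aldh1a2* is the main source enzyme in the trunk mesoderm. *Rarb* and *Cyp26a1* are themselves classical targets of the receptors, through response elements in their promoters.

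The elements are shown here because these members are known targets of the pathway. RefSeq promoter windows (GRCm38.p6, from 250 bases before to 50 after each transcript start) were searched on both strands for 2 half-sites in the same direction with a gap of 5 bases, each half-site made of A or G, then G, then G or T, then TCA. Such a repeat was present in 32 of 32851 windows (0.0974%). Of the 8 members that had a window (13 windows in all), *Rarb* and *Cyp26a1* held it. Half-sites are in capitals, 5′ to 3′ on the gene's strand, and in *Cyp26a1* the repeat lies on the opposite strand and is printed as its complement.
Rarb: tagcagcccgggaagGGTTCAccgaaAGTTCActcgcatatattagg
Cyp26a1: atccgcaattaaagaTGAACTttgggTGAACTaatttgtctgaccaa
The *Rarb* stretch is chr14:16575498-16575544 on the minus strand, with the repeat at positions -53 to -37 from the transcript start. The *Cyp26a1* stretch is chr19:37697761-37697807 on the plus strand, with the repeat at -32 to -16. These matches describe the sequence and do not show that a receptor was bound in these cells.

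The miR-302 RNAs deleted in KO share a seed, the bases that pair with a target mRNA. The mature RNAs are shown with the seed (bases 2 to 8) in capitals, from RefSeq (GRCm38.p6), to be read beside the matching sites in a member.
miR-302b-3p: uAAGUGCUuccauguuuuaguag
miR-302d-3p: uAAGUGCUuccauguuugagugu
They lie at chr3:127545275-127545297 and chr3:127545665-127545687, both on the plus strand. In the members' 3′UTRs (the longest that GENCODE M21 annotates on GRCm38), a seed match (to all of it, or to all but its last base with an A opposite the first base) was present in 1 of the 10 genes, *Cyp26b1*, and in 2834 of the 13768 tested genes with a 3′UTR (20.6%). *Cyp26b1* has 2 matches on the minus strand of chromosome 6, shown with the paired bases in capitals.
Cyp26b1 site 1: tgcagattgaAGCACTTtcaaa
Cyp26b1 site 2: atattgagaaAGCACTTgtgtg
The capitals are at chr6:84571885-84571891 and chr6:84571595-84571601. The levels of *Cyp26b1* are given with the degrading enzymes.

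Total counts ran from 17352498 to 26634523 per library, and libraries of one genotype differed by far more than counting noise (chi-square per degree of freedom 28.0 to 45.6). The labelled cell type was checked first. *Pdx1*, which defines the pancreatic domain, was at 73.1 to 108 CPM (counts scaled to library size with TMM factors) and *Sox9*, of the progenitors, at 178 to 259 CPM. All 11 progenitor markers were detected in each library, but some were low. *Ptf1a* was at 1.52 to 4.96 CPM and *Nkx6-1* at 0.762 to 4.73 CPM, both named after their values were seen. Other cell types were also present and were uneven between libraries. The 7 blood markers summed to 15672 CPM in WT replicate 3, 6321 in KO replicate 1, 333 in KO replicate 3 and 0.627 to 2.23 in the other libraries. The 12 mesenchyme markers summed to 668, 280 and 1243 CPM over the WT libraries (replicates 1, 2 and 3, in this order here and in all later values) against 1257, 132 and 1162 CPM over the KO libraries. In KO replicate 2, 6 of the 12 markers were at 0, among them the collagen genes *Col1a1* and *Col3a1*. The genes of the deleted cluster could not check the genotype labels, since *Mir302d* had 2 counts, in KO replicate 3, and the other 4 (*Mir302a* to *Mir302c* and *Mir367*) had 0 throughout, all under the floor of 3 counts.

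No member was called between KO and WT. With edgeR's quasi-likelihood test and Benjamini-Hochberg adjustment over 16353 tested genes, 0 of the 9 members that passed the filter on low counts had an adjusted p under 0.05, as was so for all tested genes (0%), and 0 of the 9 had an unadjusted p under 0.05, which 1700 tested genes did (10.4%; 1050 higher in KO and 650 lower). DESeq2 called 0 of the 8 members to which it gave an adjusted p, against 699 of 14353 genes (4.87%). The estimate was above 0 for 4 members and below 0 for 5, with a median log2 fold change (KO against WT) of -0.09, where the median of all tested genes was -0.02. The groups did not overlap for 1 of the 10 members, *Aldh1a3*, which had too few counts to be tested. Among tested genes, 16.4% had groups that did not overlap. Since these are sorted pools of several cell types, fewer cells of a type and less RNA per cell cannot be told apart in any value below.

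**Figure D1:**
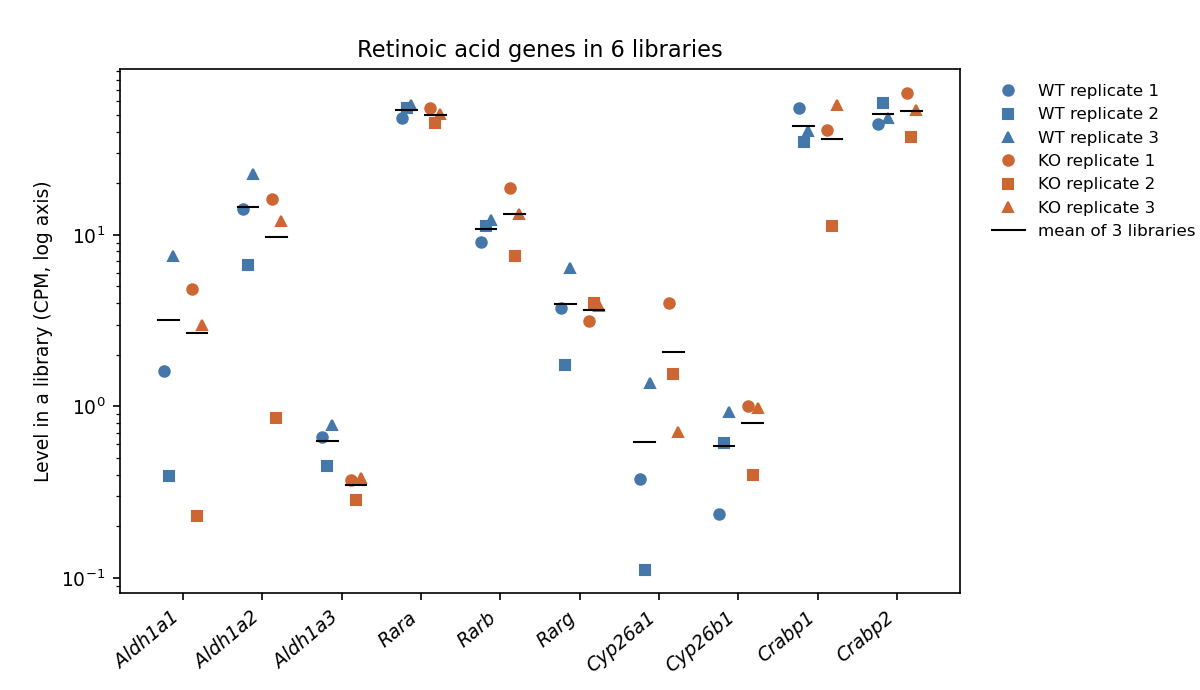
Level of each of the 10 retinoic acid genes in every library, in CPM on a log axis, with WT in blue, KO in orange and the mean of the 3 libraries of a genotype as a bar. The receptor *Rara* lies between 44.8 and 57.4 CPM in all 6 libraries and the binding protein *Crabp2* between 37.2 and 67.3 CPM, while *Aldh1a1* and *Aldh1a2* are spread within each genotype and are lowest in KO replicate 2.

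**Figure D2:**
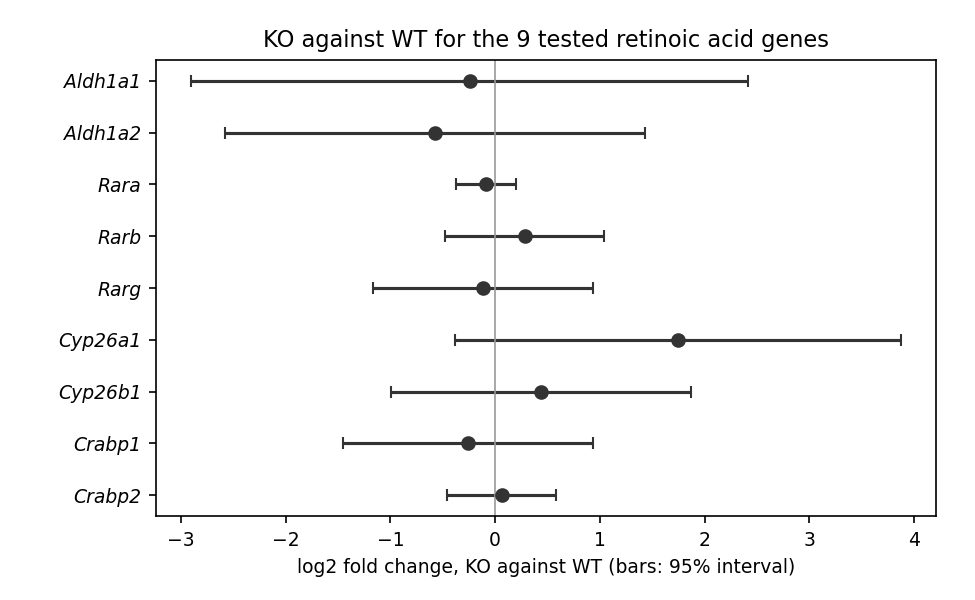
Log2 fold change of the 9 tested members, KO against WT, with its 95% interval from the edgeR fit as the bar. Every interval includes 0; that of *Rara* runs from -0.37 to 0.20 and that of *Aldh1a1* from -2.90 to 2.42.

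Levels can be compared between genes only per length, and for this CPM was divided by the kilobases of each gene's merged exons. The binding proteins were highest, with *Crabp1* at a mean of 49.7 and *Crabp2* at 39.0 CPM per kb over the 6 libraries. *Rara* followed at 11.9 and *Aldh1a2* at 5.34 CPM per kb. *Rarb* was at 2.28, *Rarg* at 0.894, *Cyp26a1* at 0.679, *Aldh1a1* at 0.594, *Cyp26b1* at 0.129 and *Aldh1a3* at 0.105 CPM per kb. Of the neighbours in this order, only *Crabp2* with *Rara* and *Rara* with *Aldh1a2* had ranges over the libraries that did not overlap. *Crabp1* was above *Crabp2* in 3 of 6 libraries, so the order of the binding proteins was not settled.

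*Aldh1a2* (ENSMUSG00000013584.6), the main synthesis enzyme of early embryos, was at 14.1, 6.65 and 22.8 CPM in WT against 16.1, 0.855 and 12.1 CPM in KO. Apart from KO replicate 2, the KO libraries lay inside the WT range. The log2 fold change was -0.57 (with a standard error, SE, of 0.85 and edgeR's adjusted p = 0.907; 95% interval -2.58 to 1.43), and without KO replicate 2 it was -0.02. It was -0.05 without WT replicate 3 and -1.17 without KO replicate 1.

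*Aldh1a1* (ENSMUSG00000053279.9), a synthesis enzyme known from many later tissues, was lower per length than *Aldh1a2*. It was at 1.60, 0.391 and 7.57 CPM in WT against 4.81, 0.228 and 2.99 CPM in KO. Replicate 2 of each genotype was low and the groups overlapped. Its log2 fold change of -0.24 had an SE of 1.13 (adjusted p = 0.972 by edgeR), and the sign turned with single libraries, to 0.31 without KO replicate 2 and 1.46 without WT replicate 3. *Aldh1a3* (ENSMUSG00000015134.16), the third enzyme of the family, had 60 counts in all. It was at 0.660, 0.447 and 0.777 CPM in WT against 0.373, 0.285 and 0.381 CPM in KO. Each KO library was below each WT library, with a two-sided exact permutation p of 0.1, the smallest that 3 libraries against 3 allow. Without the filter on low counts its log2 fold change was -0.84 (adjusted p = 0.788 by edgeR), and DESeq2 gave it no adjusted p.

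*Aldh1a1* and *Aldh1a2*, and *Cyp26a1* described below, varied between libraries far more than most genes. The highest library was 33.2 times the lowest for *Aldh1a1* and 26.6 times for *Aldh1a2*, where the median over 16072 tested genes with no library at 0 was 1.59. Of the tested genes, 99.1% and 98.7% had a smaller standard deviation of log2 CPM than *Aldh1a1* and *Aldh1a2*. The spread of the synthesis enzymes ran within genotypes, and it moved with some of the marker lists of cells outside the pancreatic epithelium.

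The summed markers of the mesothelium, the cell layer on the surface of the organs, and of mesenchyme moved with it, though not each marker did. They were not alone in this. The summed blood, endothelium and liver markers were also lowest in KO replicate 2, and the blood sum was highest in WT replicate 3 and KO replicate 1. The 5 mesothelium markers summed to 65.4, 54.9 and 152 CPM over the WT libraries against 108, 20.5 and 79.5 CPM over the KO libraries. From highest to lowest, this is the order of the libraries for *Aldh1a1*: WT replicate 3, KO replicate 1, KO replicate 3, WT replicate 1, WT replicate 2 and KO replicate 2. *Aldh1a2* had the same order except that WT replicate 1 was above KO replicate 3, which is the order of *Wt1*, a transcription factor of mesothelium.

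In KO replicate 2, *Wt1* was at 0, and *Upk3b*, a membrane protein of mesothelial cells, was at 0.171 CPM against 21.1 to 83.1 CPM in the other libraries. *Pdgfra*, a receptor of mesenchymal cells, was at 0.912 CPM there and at 9.22 to 71.6 CPM elsewhere. Of the 5 mesothelium markers, 2 had another order of libraries. *Msln* was highest in KO replicate 2, at 12.8 CPM, and *Gpm6a* was highest in WT replicate 2, at 14.8 CPM, and lowest in KO replicate 2, at 6.27 CPM. Tested between KO and WT, 0 of the 10 mesenchyme markers that passed the filter and 1 of the 5 mesothelium markers (*Msln*, higher in KO) had an unadjusted p under 0.05, with median log2 fold changes of 0.46 and -0.53. Of the 11 progenitor markers, 3 had an unadjusted p under 0.05 by edgeR, all higher in KO, beside 10.4% of all tested genes. DESeq2 called 2 of the 11, beside 4.87% of all genes to which it gave an adjusted p. The libraries highest in both enzymes, WT replicate 3 and KO replicate 1, were also those richest in hemoglobin transcripts, and without them the log2 fold change was 0.71 for *Aldh1a1* and -0.65 for *Aldh1a2*. The part of these cell types in the levels of *Aldh1a1* and *Aldh1a2* was not tested.

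By a Pearson correlation of log2 CPM over the 6 libraries, among 9853 genes with a mean of at least 10 CPM, the patterns most like that of *Aldh1a2* were those of *Pter* (0.996), *Osgepl1* (0.993) and *Anxa5* (0.993). Those most like *Aldh1a1* were *Fndc3c1* (0.985), *Fkbp10* (0.982) and *Rhoc* (0.980). All 6 genes were lowest in KO replicate 2 and highest in WT replicate 3 or KO replicate 1. A correlation takes no account of the size of a change. *Pter* ran from 12.4 to 20.4 CPM and *Osgepl1* from 11.8 to 17.3 CPM, where *Aldh1a2* ran from 0.855 to 22.8 CPM. These correlations describe 6 libraries that share their makeup and depth across all genes. They are the highest of 9853, and how high such values come by chance was not tested.

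**Figure D3:**
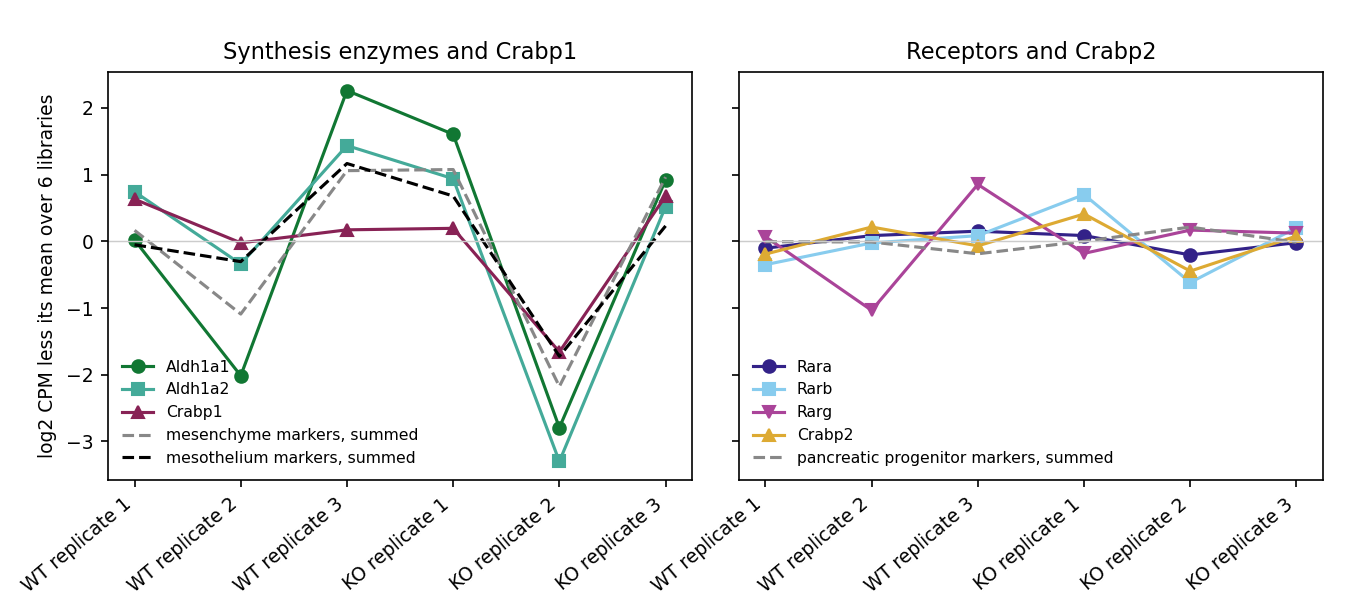
Log2 CPM of each gene less its mean over the 6 libraries, with solid lines joining the values of one gene and dashed lines the summed CPM of a marker list treated the same way. In the left panel *Aldh1a1*, *Aldh1a2* and *Crabp1* drop in KO replicate 2 together with the mesenchyme and mesothelium markers, and in the right panel *Rara* and the summed pancreatic progenitor markers stay near 0, while *Crabp2* and *Rarb* are lowest in KO replicate 2 and highest in KO replicate 1.

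*Rara* (ENSMUSG00000037992.17), the receptor that most embryonic tissues express, was the steadiest member. It was at 48.1, 54.8 and 57.4 CPM in WT against 54.8, 44.8 and 50.9 CPM in KO. The highest library was 1.28 times the lowest, and 21.8% of the tested genes had a smaller standard deviation. Its difference was small, with a log2 fold change of -0.09 (SE 0.12, edgeR's adjusted p = 0.894), and its 95% interval of -0.37 to 0.20 was the narrowest of the tested members. Without KO replicate 2 the fold change was 0.00315 on the log2 scale.

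*Rarb* (ENSMUSG00000017491.10), whose promoter element is shown above, was at 9.05, 11.3 and 12.2 CPM in WT against 18.7, 7.52 and 13.3 CPM in KO. KO replicate 1 was above every WT library and KO replicate 2 below every one. The log2 fold change was 0.28 (SE 0.32, edgeR's adjusted p = 0.868; 95% interval -0.48 to 1.04), and without KO replicate 1 it was -0.06. It is the 1 member whose transcript reaches 75% GC over some 200 bases, a property of 19.3% of the 16255 tested genes with a value, and with offsets that remove a smooth trend of level on that GC share in each library the log2 fold change was 0.26.

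*Rarg* (ENSMUSG00000001288.16), a receptor known from skin and skeletal precursors, was the lowest of the receptors. It was at 3.72, 1.73 and 6.41 CPM in WT against 3.13, 3.99 and 3.86 CPM in KO. All KO libraries lay inside the WT range. KO against WT, the log2 fold change was -0.12 (SE 0.45, edgeR's adjusted p = 0.968), and it turned to 0.45 without WT replicate 3. Per length, *Rara* was above *Rarb* and *Rarb* above *Rarg* in 6 of 6 libraries. *Rara* made up 74.5% to 83.1% of the summed receptor level per kb, *Rarb* 11.3% to 21.1% and *Rarg* 2.69% to 8.86%. The highest *Rarb* share was in KO replicate 1 and the lowest in KO replicate 2, so the shares of the genotypes overlapped.

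*Cyp26a1* (ENSMUSG00000024987.7), the inducible degrading enzyme, had the largest estimated difference among the members. Its counts were 8, 2 and 28 in WT against 107, 27 and 13 in KO. As levels these are 0.377, 0.112 and 1.36 CPM in WT against 3.99, 1.54 and 0.707 CPM in KO. The genotypes overlapped, since WT replicate 3 was above KO replicate 3. The log2 fold change was 1.75 (SE 0.91, edgeR's adjusted p = 0.587; 95% interval -0.38 to 3.87), with an unadjusted p of 0.0936. DESeq2 gave 1.78 with an adjusted p of 0.434. The estimate rested on single libraries: it was 0.86 without KO replicate 1 and 3.08 without WT replicate 3. Of the tested genes, 98.1% had a smaller standard deviation of log2 CPM, and the highest library was 35.7 times the lowest.

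*Cyp26b1* (ENSMUSG00000063415.13), the degrading enzyme with the 2 seed matches shown above, had 87 counts in all. It was at 0.236, 0.614 and 0.922 CPM in WT against 1.006, 0.399 and 0.980 CPM in KO. KO replicates 1 and 3 were just above the highest WT library and KO replicate 2 was inside the WT range. The log2 fold change was 0.44 (SE 0.61, edgeR's adjusted p = 0.897; 95% interval -0.99 to 1.87). Without WT replicate 1 it was 0.05 and without WT replicate 3 it was 0.95.

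*Crabp1* (ENSMUSG00000032291.9), the binding protein tied to breakdown, was at 55.1, 35.03 and 40.1 CPM in WT against 40.7, 11.3 and 57.0 CPM in KO. KO replicate 2 was low, as for *Aldh1a1* and *Aldh1a2*, and the other KO libraries were within or just above the WT range. This gave a log2 fold change of -0.26 (SE 0.51, edgeR's adjusted p = 0.932), and without KO replicate 2 it was 0.18. *Crabp2* (ENSMUSG00000004885.6), which carries retinoic acid to the receptors, was at 44.4, 58.8 and 48.4 CPM in WT against 67.3, 37.2 and 53.5 CPM in KO. KO replicate 2 was again the lowest and KO replicate 1 the highest. For it, the log2 fold change was 0.06 (SE 0.22, edgeR's adjusted p = 0.964; 95% interval -0.46 to 0.58), and it turned to -0.02 without WT replicate 1 and to -0.145 without KO replicate 1.

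The rest of the pathway was described from 4 lists, which held 77 genes, 55 of them tested. By edgeR 0 passed the adjusted threshold, and 9 (16.4%) had an unadjusted p under 0.05, 6 higher in KO and 3 lower, beside 10.4% of all tested genes. DESeq2 called 1, *Gata4*. Of the 6 higher genes, 5 reach 75% GC over some 200 bases of their transcript, as does 1 of the 3 lower ones.

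Upstream of the members, 26 genes of retinol transport, storage and oxidation were found and 18 tested. Of these, 9 were above 0 and 9 below, 0 had an unadjusted p under 0.05, and the median log2 fold change was -0.0044. *Rbp4*, which carries retinol in blood, was at 678, 1236 and 631 CPM in WT against 679, 653 and 801 CPM in KO, a log2 fold change of -0.25 (SE 0.25). *Ttr*, its partner in plasma, was at 147, 268 and 193 CPM in WT against 120, 323 and 148 CPM in KO (log2 fold change -0.04). Both are also made by liver and yolk sac cells. *Rdh10*, the enzyme that makes retinaldehyde in embryos, was named after its values were seen. It was at 1.98, 5.75 and 2.52 CPM in WT against 7.53, 3.93 and 7.46 CPM in KO, with overlapping groups and a log2 fold change of 0.89 (SE 0.46, edgeR's adjusted p = 0.584).

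Of 5 other genes of retinoic acid metabolism and binding, 3 were tested, 1 above 0 and 2 below, with a median of -0.15 and 0 with an unadjusted p under 0.05. *Fabp5*, which can carry retinoic acid to another nuclear receptor, was at 331, 305 and 269 CPM in WT against 264, 225 and 293 CPM in KO. *Por*, the electron donor of CYP enzymes, had a mean of 159 ± 8.50 CPM for WT and 170.0 ± 16.6 CPM for KO (SD, n = 3). *Cyp26c1*, the third degrading enzyme, named after its values were seen, reached at most 0.056 CPM.

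The list of retinoid X receptors and coregulators also holds another nuclear receptor, *Ppard*. All 19 of its genes were tested, 10 above 0 and 9 below, with a median of 0.0043. An unadjusted p under 0.05 was reached by 3 in the higher and 2 in the lower direction, beside 10.4% of all tested genes. None passed the adjusted threshold. Groups did not overlap for 5 of the 19, 3 with KO above and 2 with KO below, beside 16.4% of all tested genes. *Rxrb*, a partner of the RAR proteins on DNA, was at 55.5, 61.1 and 44.8 CPM in WT against 74.7, 65.6 and 71.7 CPM in KO, so that the groups did not overlap. Its log2 fold change was 0.39 (SE 0.13, edgeR's adjusted p = 0.320), and 0.18 with the GC offsets. *Ncor1*, a corepressor of unliganded receptors, had a log2 fold change of 0.47 (adjusted p = 0.450 by edgeR), and 0.35 with the GC offsets. For *Ncoa6*, a coactivator, it was 0.45 (adjusted p = 0.368 by edgeR), and 0.21 with the GC offsets. *Crebbp*, a histone acetyltransferase, had lower estimates, at 35.5, 30.1 and 30.9 CPM in WT against 25.1, 23.0 and 22.5 CPM in KO. Its log2 fold change was -0.45 (adjusted p = 0.234 by edgeR), and -0.92 with the GC offsets. *Ncoa3*, a coactivator, had -0.33 (adjusted p = 0.473 by edgeR), and -0.29 with the GC offsets. The methyltransferase *Prmt1* and the deacetylase *Hdac3*, the highest of the whole list per length, had log2 fold changes of 0.11 and 0.14.

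Among 29 genes known to respond to retinoic acid in embryos or cell lines, 16 were tested, 10 above 0 and 6 below, with a median of 0.11 against -0.02 for all tested genes. An unadjusted p under 0.05 was reached by 3 in the higher and 1 in the lower direction, beside 10.4% of all tested genes. *Hoxa3*, an anterior-posterior patterning gene, was at 0.848, 0.894 and 0.874 CPM in WT against 2.65, 1.65 and 1.85 CPM in KO. Its log2 fold change was 1.23 (SE 0.33, edgeR's adjusted p = 0.207), and 1.27 with the GC offsets. *Gata4*, a transcription factor of foregut and pancreas progenitors, was at 173, 249 and 222 CPM in WT against 342, 334 and 322 CPM in KO. Its log2 fold change was 0.63 (SE 0.13, edgeR's adjusted p = 0.140), and DESeq2 gave an adjusted p of 0.000919. With the GC offsets the *Gata4* log2 fold change was 0.52. The KO libraries were above every WT library for both genes. Groups did not overlap for 4 of the 16 tested genes of this list, 3 with KO above and 1 with KO below. Among all tested genes, this was so for 16.4%.

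*Nr2f2*, a nuclear receptor, had a log2 fold change of 0.38 (adjusted p = 0.403 by edgeR), and 0.07 with the GC offsets. *Isl1*, a transcription factor of pancreatic mesenchyme and endocrine cells, had a log2 fold change of -0.08.

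**Figure D4:**
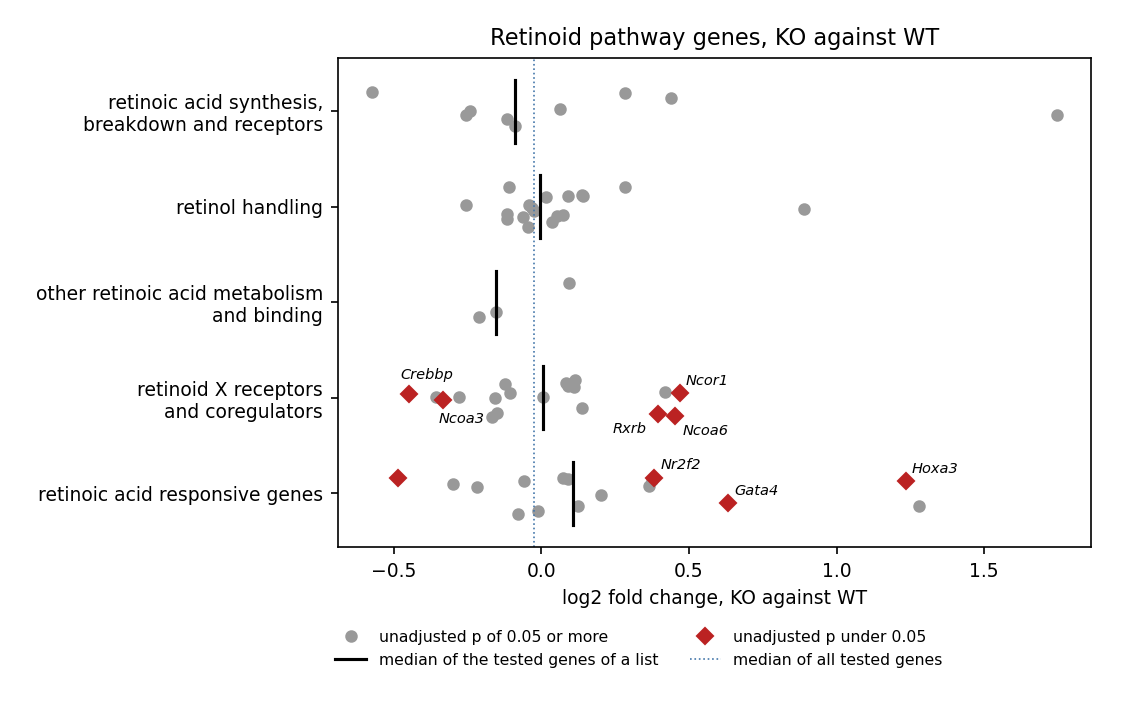
Log2 fold change (KO against WT) of every tested gene of the member group and the 4 pathway lists, with red diamonds for an unadjusted edgeR p under 0.05, a black bar for the median of a list and a dotted line for the median of all tested genes. No member is a diamond, *Cyp26a1* lies farthest right at 1.75, and the diamonds fall in the receptor and response lists on both sides of 0.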

How the data were processed

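Reads in pairs of 150 bp were cleaned, aligned by STAR against GRCm39 and assigned to genes by GenomicAlignments, and the authors deposited the raw counts per gene and library from SMART-seq v4 and Nextera XT libraries. The annotation, the handling of strand and of shared reads, and tool versions are not given in the sources used here, so genes that overlap others are uncertain. Symbols were found for 94.0% of identifiers. The deposited counts were tested with edgeR 4.0.16 in R 4.3.3 (filterByExpr, TMM, quasi-likelihood test at defaults, genotype alone, two-sided), with Benjamini-Hochberg adjustment and a threshold of 0.05. CPM are TMM-scaled. DESeq2 1.42.0, named by the paper, was an alternative, beside another scaling, no filter, a newer estimate of the spread, GC offsets, a replicate block and left-out libraries. Exon lengths, GC shares and 3′UTRs came from GENCODE M21 (GRCm38), so gene coordinates of the counts are not given. The fits were tested on simulated data.

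The members, lists and tests were chosen with earlier results of these data known. The rule for names took all members, from each pathway list the genes with an unadjusted p under 0.05 and the 2 highest per length among the rest, from each cell type list the highest and the most changed gene, and the 3 nearest patterns for the 2 most variable members. A few genes that the rule names are not reported here, though they stay in the fits and counts. Of the cell type lists, progenitor, blood, mesenchyme and mesothelium markers are described with the results and the others among the closing observations.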

Additional observations from a re-analysis of the deposited data

How the results depend on the processing

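In none of the 13 alternative settings was a member called (0 of the tested members in each). Over all genes, where edgeR called 0, DESeq2 called 699 and edgeR without the filter on low counts 264. Leaving out single libraries, the count ran from 0 to 217, and 217 came without WT replicate 2. The labels do not say whether a replicate number pairs a WT with a KO library. Deviations from the genotype mean had correlations of -0.211, 0.251 and 0.0779 for numbers 1, 2 and 3. Libraries with different numbers gave -0.307 to 0.336. Libraries also differ in cell makeup, so these values cannot show whether a litter or batch was shared. With the replicate block 0 genes were called, no call changed, and the *Rarg* log2 fold change turned to 0.0381. Directions turned in 12 of 117 alternative values of members. Leaving out one library gave -0.989 to 1.46 for *Aldh1a1*, -0.160 to 0.00315 for *Rara*, -0.0564 to 0.580 for *Rarb*, -0.452 to 0.453 for *Rarg*, -0.695 to 0.182 for *Crabp1* and -0.145 to 0.279 for *Crabp2*. Without the 2 libraries richest in hemoglobin, *Aldh1a1* was at 0.711, *Rarg* at 0.549, *Crabp2* at -0.162 and *Ttr* at 0.205. *Aldh1a2*, *Cyp26a1* and *Cyp26b1* kept their direction in every setting, but leaving out one library gave -1.17 to -0.02, 0.86 to 3.08 and 0.05 to 0.95, so that *Aldh1a2* and *Cyp26b1* came close to 0.

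Of the other named genes, 9 of 195 alternative values turned. Leaving out one library gave -0.397 to 0.139 for *Rbp4* (highest without WT replicate 2), -0.583 to 0.238 for *Ttr* (without KO replicate 1) and -0.362 to 0.228 for *Isl1* (without KO replicate 3), and *Ttr* was at 0.0175 with GC offsets. *Gata4* was called by DESeq2 (adjusted p = 0.000919) and by edgeR without the filter (adjusted p = 0.0427). The cause of these changes was not tested. The lowest counts over the 6 libraries were 60 for *Aldh1a3*, 87 for *Cyp26b1* and 185 for *Cyp26a1*, and the part of depth in their results was not tested.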

Other observations

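More genes of the retinoid lists are named here, after their values were seen. KO replicate 2 was the highest library for some, such as *Bco1* at 30.8 CPM and *Dhrs4* at 96.5 CPM. It was the lowest for *Tbx5*, *Cyp1b1* and *Stra6*, so the lists did not move as a whole in that library. *Tbx5*, a transcription factor of limb and heart mesoderm that responds to retinoic acid, was at 11.5, 2.91 and 29.1 CPM in WT replicates 1, 2 and 3 and, in the same order, 11.0, 0 and 24.4 CPM in KO. *Cyp1b1*, an enzyme that can make retinoic acid from retinol, was at 1.37, 0.168 and 10.1 CPM in WT against 1.19, 0 and 9.36 CPM in KO. *Stra6*, the membrane receptor that takes up retinol, was at 8.67, 12.3 and 18.2 CPM in WT against values of 4.39 to 18.6 CPM in KO. *Adh4* and *Stra8* had 0 counts in all 6 libraries, under the floor of 3 counts.

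Of the remaining cell type lists, endothelium markers summed to 4.01, 6.48 and 9.08 CPM in WT and 26.1, 1.48 and 4.14 CPM in KO, neural and neural crest markers to 47.3 to 118 CPM, liver markers to 506 to 1709 CPM and endocrine markers to 972 to 5338 CPM. Gut endoderm markers varied least of these lists, with sums of 3067 to 3632 CPM. *Sox17*, of the endoderm of the bile duct primordium and also named after its values were seen, was at 0.342 CPM in KO replicate 2 and at 18.1 to 108 CPM elsewhere. *Sox1* had 0 counts in every library.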
